A study of Homo sapiens with 8 samples.

Results

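The cyclins of types A, B, D, E and F that time the cell cycle were followed as a group of 9 genes among the 58233 gene rows of an RNA-seq count table. Members were taken by name, as the cyclins of the successive phases: CCND1, CCND2 and CCND3 (G1), CCNE1 and CCNE2 (G1 to S), CCNA2 and CCNF (S to G2), and CCNB1 and CCNB2 (G2 to mitosis). All 9 passed the filter on low counts in every comparison. The libraries came from MCF10A-Hras cells, a non-tumorigenic human breast epithelial line that carries the H-Ras oncogene in every group, so no group here has wild-type RAS signalling alone. The 4 groups were control cells (genotype WT) left untreated, control cells 12 h after 5 Gy of X-ray ionizing radiation (IR), untreated RBM6-KO1 cells, and RBM6-KO1 cells 12 h after the same dose, with 2 replicates per group and 8 libraries in all. RBM6-KO1 is 1 knockout clone, made with a pair of guides that bring a Cas9 nickase to exon 3 of RBM6, which encodes an RNA-binding splicing regulator, so an effect of RBM6 and a property of the clone cannot be told apart in these libraries.

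Cyclins are the regulatory subunits of cyclin-dependent kinases (CDKs), and their abundance sets which kinase is active at each stage of the cycle. D-type cyclins respond to mitogens and pair with CDK4 and CDK6 to begin phosphorylation of the RB protein, E-type cyclins drive entry into S phase with CDK2, cyclin A works with CDK2 and CDK1 through S and G2, and B-type cyclins bring cells into mitosis with CDK1. Cyclin F binds no CDK and is instead the substrate-binding part of an SCF ubiquitin ligase. Transcripts of the cyclins of G2 and mitosis are known to be held down by the DREAM complex when p53 raises the CDK inhibitor p21, and to be switched on late in the cycle by B-MYB, FOXM1 and NF-Y, which bind the CHR and CCAAT elements of their promoters. The comparisons ask which of these phases lost transcript after IR in each genotype, and whether the loss differed without RBM6.

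The libraries held 15355281 to 29832009 counts on genes, the deepest being control replicate B after IR. All 7 epithelial markers were detected, and KRT5 alone stood at 1056 to 1621 CPM (counts scaled to library size with edgeR's TMM method). The 4 fibroblast markers summed to 80.9 to 108 CPM in control and 118 to 211 CPM in RBM6-KO1 libraries, mostly from DCN, while COL1A2 stayed under 1 CPM. The sum was higher after IR than before in each genotype, and its part in the results was not tested. The 4 blood markers summed to 3.65 to 19.0 CPM, almost wholly from CD14, with CD3E at 0 in every library, and the 3 endothelial markers to 1.25 to 6.32 CPM. RBM6 mRNA itself was not called lower in RBM6-KO1 cells (log2 fold change -0.14 untreated and -0.40 after IR), and a count over the whole gene does not test a change in exon 3. CDKN1A, which encodes p21, rose with IR from 448 and 469 CPM to 1498 and 1718 CPM in control cells and from 382 and 402 CPM to 1605 and 1609 CPM in RBM6-KO1 cells.

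The promoters of CCNB1, CCNB2 and CCNF, the cyclins that were lower after IR in both genotypes, are shown with that of CCNA2, which did not pass the test, because the 4 genes lie next to each other in the cycle. The sequences are from RefSeq (GRCh38.p14), 5′ to 3′ on the strand of the gene. They begin 130 bases before the RefSeq start and stop before the first base transcribed in either RefSeq or GENCODE, and capitals mark each CCAAT (or its reverse complement ATTGG) and each TTTGAA.
CCNB1 promoter (chr5:69167020-69167134, plus strand): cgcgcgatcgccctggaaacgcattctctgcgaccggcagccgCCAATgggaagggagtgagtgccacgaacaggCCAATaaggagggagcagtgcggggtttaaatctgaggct
CCNB2 promoter (chr15:59105016-59105125, plus strand): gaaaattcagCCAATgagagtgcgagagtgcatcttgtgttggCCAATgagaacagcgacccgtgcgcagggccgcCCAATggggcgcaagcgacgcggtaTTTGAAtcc
CCNF promoter (chr16:2429317-2429393, plus strand): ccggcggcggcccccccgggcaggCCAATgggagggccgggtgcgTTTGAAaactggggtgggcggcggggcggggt
CCNA2 promoter (chr4:121823884-121824013, minus strand): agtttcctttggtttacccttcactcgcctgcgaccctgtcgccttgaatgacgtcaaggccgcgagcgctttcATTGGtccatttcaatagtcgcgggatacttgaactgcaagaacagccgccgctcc
CCNB1 had 2 CCAAT words, 87 and 55 bases before the start. CCNB2 had 3, at 120, 87 and 54 bases, followed by TTTGAA at 29 bases, the core letters of the CHR element. CCNF had 1 CCAAT at 106 bases and TTTGAA at 85 bases. CCNA2 had 1 CCAAT, on the reverse strand at 56 bases, and no TTTGAA. The sequence of CCNA2 holds cttgaa and that of CCNB1 holds tttaaa, letters close to TTTGAA that were not searched or marked. A promoter without TTTGAA is therefore not shown to lack a CHR element. Over all 27305 RefSeq promoters in the table, searched on both strands in the same 130 bases, 22.3% held at least 1 CCAAT, 5.34% at least 2 and 0.861% at least 3, while 6.29% held TTTGAA. The neighbouring CCAAT words were 32 bases apart in CCNB1, and 33 and 33 bases apart in CCNB2. In the longer window, from 250 bases before to 50 bases after the start, TTTGAA was in 15.4% of promoters. Among the cyclins it was in CCNB2 and CCNF. The only other CHR form searched, TTCGAA, was in 1.45% of promoters and in CCNF. The E2F strings TTTCCCGC (1.66% of promoters) and TTTGGCGC (0.659%) and the AP-1 string TGACTCA (4.92%) matched in none of the 6 cyclin promoters listed, which were those of CCND3, CCNE1, CCNA2, CCNF, CCNB1 and CCNB2. Promoters of CCND1, CCND2 and CCNE2 were not analysed here. A match describes the letters only, and binding was not measured.

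Per length of transcript, the 9 cyclins spanned a wide range. In untreated control cells CCNB1 was highest at 72.2 ± 3.06 RPKM (reads per kilobase of exon scaled to library size, SD, n = 2), followed by CCND1 at 34.9 ± 1.28, CCNB2 at 27.7 ± 0.581, CCND3 at 24.8 ± 0.0020, CCNA2 at 20.5 ± 3.73, CCNF at 7.61 ± 0.0827, CCND2 at 4.69 ± 0.0270, CCNE1 at 3.78 ± 0.133 and CCNE2 at 0.158 ± 0.0334 RPKM. No neighbours in this order overlapped in their replicate values, and the closest relative to their spread were CCND3 and CCNA2, 4.36 RPKM apart where the SDs summed to 3.73. Untreated RBM6-KO1 cells had the same first 6 genes in the same order, and there CCNE1 (5.22 ± 0.00972 RPKM) and CCND2 (4.81 ± 0.670 RPKM) overlapped. After IR the order changed at the top: CCND1 stood above CCNB1, at 48.9 ± 2.24 against 41.1 ± 5.24 RPKM in control cells and at 59.7 ± 7.82 against 37.0 ± 0.759 RPKM in RBM6-KO1 cells. CCNB2 moved from rank 3 to rank 5 in both genotypes, below CCND3 and CCNA2. In RBM6-KO1 cells after IR, CCNF was at rank 8, at 3.13 ± 0.306 RPKM, below CCNE1 at 5.42 ± 0.444 RPKM.

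The IR response was read within each genotype, on the 4 libraries of that genotype, with edgeR's quasi-likelihood test and Benjamini-Hochberg adjustment over all genes tested. Calls needed an adjusted p under 0.05 and a change of 2-fold or more. CCNF and the B-type cyclins of G2 and mitosis were lower after IR in both genotypes, and no other cyclin was lower at an adjusted p under 0.05. The S to G2 group was split, since CCNA2 did not pass where CCNF did. In control cells CCNB1, CCNB2 and CCNF were lower after IR at an adjusted p under 0.05, each by less than 2-fold, so that 0 of 9 cyclins were called where 3.59% of all genes tested were (1.91% called lower). On the adjusted p alone 4 of 9 passed, 3 lower and CCND2 higher, beside 5.72% of all genes in either direction and 2.91% lower; the unadjusted p was under 0.05 for 5 cyclins, and DESeq2 passed the same 4 on its adjusted p. In RBM6-KO1 cells CCNB2 and CCNF were called lower, 2 of 9, where 3.11% of all genes were called (1.97% lower). There 3 of 9 passed on the adjusted p alone, all lower, beside 5.67% of all genes (3.23% lower). The median log2 fold change of all genes tested was 0.017 in control and -0.006 in RBM6-KO1 cells, and that of the 9 cyclins 0.039 and -0.152.

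CCNB1 (ENSG00000134057, chromosome 5, 69167135 to 69178245) encodes cyclin B1, the main partner of CDK1 at mitotic entry. It was at 181 and 171 CPM in untreated control cells, 109 and 90.9 CPM in control cells after IR, 175 and 169 CPM in untreated RBM6-KO1 cells, and 88.6 and 91.2 CPM in RBM6-KO1 cells after IR. Every irradiated library lay below every untreated one, and the untreated libraries of the genotypes overlapped. The fall was 1.77-fold in control cells (log2 fold change -0.83, 95% interval -1.18 to -0.47, adjusted p = 0.0179) and 1.94-fold in RBM6-KO1 cells (log2 fold change -0.95, interval -1.28 to -0.63, adjusted p = 0.0141).

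CCNB2 (ENSG00000157456, chromosome 15, 59105126 to 59125045), the second B-type cyclin, went from 75.0 and 77.3 CPM to 46.4 and 43.0 CPM in control cells. In RBM6-KO1 cells it went from 71.1 and 73.7 CPM to 32.1 and 35.2 CPM, the lowest values of the gene in the series. The change was 1.72-fold in control cells (log2 fold change -0.78, interval -1.14 to -0.41, adjusted p = 0.0247) and 2.18-fold in RBM6-KO1 cells (log2 fold change -1.12, interval -1.47 to -0.77, adjusted p = 0.0095), where it passed the 2-fold limit. The ratio of CCNB1 to CCNB2 in RPKM was 2.39 to 2.79 in the other libraries and 2.93 and 3.12 in the RBM6-KO1 libraries after IR.

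CCNF (ENSG00000162063, chromosome 16, 2429394 to 2458854) encodes cyclin F, whose ligase removes replication and centrosome factors during G2. It was at 47.6 and 48.4 CPM in untreated control cells and at 30.1 and 29.2 CPM after IR, a fall of 1.63-fold (log2 fold change -0.70, interval -1.10 to -0.31, adjusted p = 0.0450). In RBM6-KO1 cells it was at 39.0 and 46.8 CPM untreated and at 21.1 and 18.4 CPM after IR, a 2.19-fold fall (log2 fold change -1.13, interval -1.54 to -0.73, adjusted p = 0.0162). Within each genotype the irradiated and untreated libraries did not overlap, and the RBM6-KO1 libraries after IR were below the control libraries after IR. CCNF shares 527 exon bases with a noncoding RNA gene on the other strand that has no row in the counts. It shares 219 with another on that strand, which had 0 to 10 counts per library. How far such reads enter its counts was not tested.

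The size of these falls held when any 1 library was left out, but the adjusted p did not always. In control cells CCNB1 ranged from -0.94 to -0.70 on the log2 scale. Without the untreated control replicate A its adjusted p was 0.123, with 0.133 for CCNB2, 0.231 for CCNF and 0.243 for CCND2, and without the untreated control replicate B they were 0.108, 0.243, 0.374 and 0.329. In RBM6-KO1 cells all 3 falls kept an adjusted p under 0.05 in every alternative. Without the untreated RBM6-KO1 replicate B, however, CCNF was at -0.99 (adjusted p = 0.0234), just inside 2-fold, and 1 cyclin was called in place of 2.

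CCNA2 (ENSG00000145386, chromosome 4, 121816444 to 121823883), the cyclin A of dividing somatic cells, did not follow the B-type cyclins. It was at 63.5 and 49.0 CPM in untreated control cells and 50.8 and 57.4 CPM after IR. In RBM6-KO1 cells it was at 55.4 and 47.4 CPM untreated and 43.1 and 50.5 CPM after IR. Irradiated and untreated libraries overlapped in each genotype. The log2 fold change was -0.06 in control cells (interval -0.47 to 0.35, adjusted p = 0.864) and -0.15 in RBM6-KO1 cells (interval -0.53 to 0.22, adjusted p = 0.570), so a fall of the size of that of CCNB2 lay outside the interval in each genotype. CCNA2 shares 254 exon bases with EXOSC9, whose own log2 fold changes were -0.14 and -0.44, and the strandedness of the counts is not given in the sources used here.

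**Figure D1:**
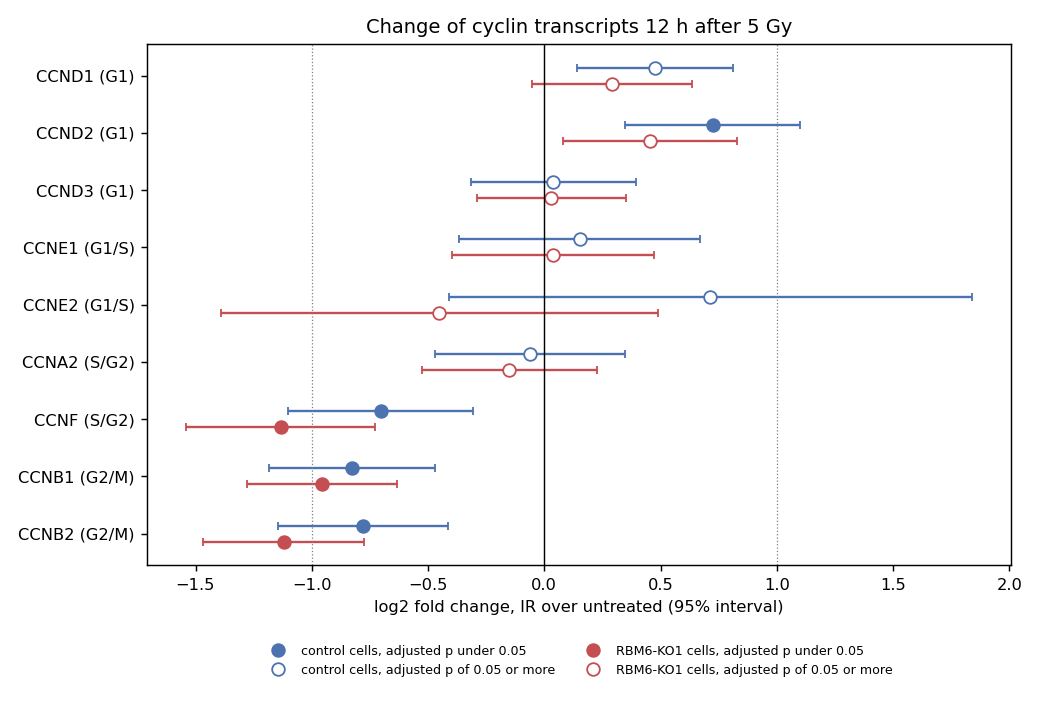
Log2 fold change of the 9 cyclins after IR over untreated in control and RBM6-KO1 cells, ordered by phase, with 95% intervals from edgeR. Filled points have an adjusted p under 0.05 and dotted lines mark a 2-fold change; CCNF, CCNB1 and CCNB2 lie between -0.70 and -1.13 in both genotypes, and CCND2 in control cells at 0.72 is the only filled point above 0.

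Ratios within a library do not depend on its depth or scaling, and they show the change in balance. CCNB1 over CCNA2 in RPKM was 3.22 and 3.93 in untreated control cells and 2.42 and 1.79 after IR. In RBM6-KO1 cells it was 3.57 and 4.04 untreated and 2.32 and 2.04 after IR. CCNB2 over CCNA2 was 1.18 to 1.58 in the 4 untreated libraries and 0.695 to 0.912 in the 4 irradiated ones. CCNF over CCNA2 was 0.307 to 0.431 untreated and 0.159 to 0.258 after IR. In all 3 ratios each irradiated library lay below each untreated one. The B-type sum over the E-type sum went from 26.3 and 24.5 to 13.2 and 12.3 in control cells and from 17.2 and 17.4 to 7.92 and 9.39 in RBM6-KO1 cells. These ratios are descriptions of the same counts and were not tested, and in bulk RNA fewer cells in a phase and less RNA per cell cannot be told apart.

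**Figure D2:**
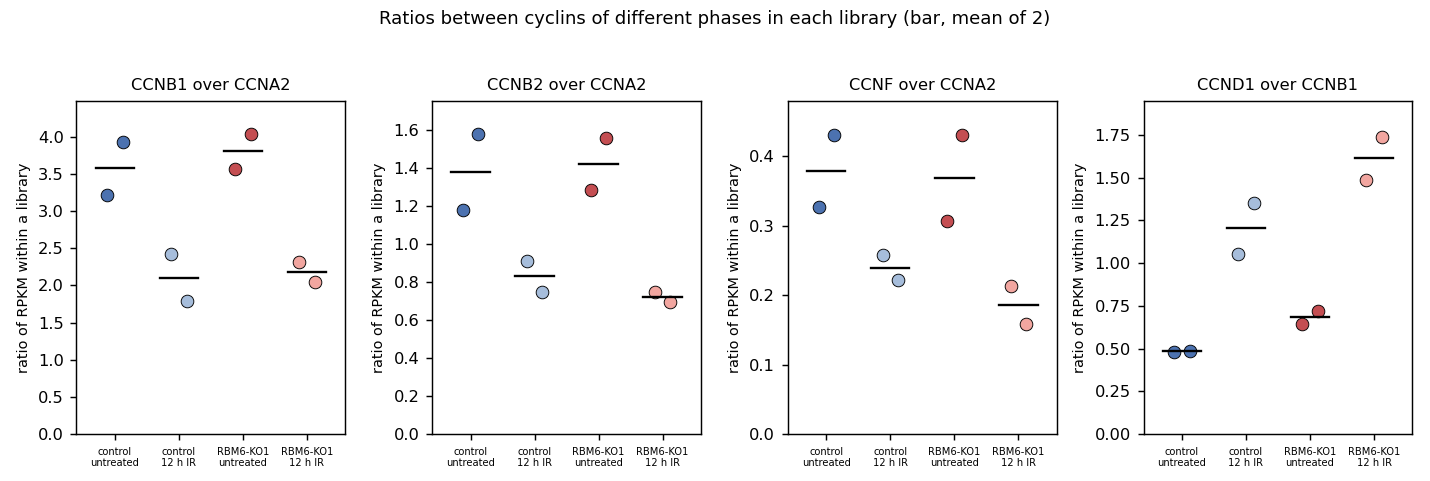
Ratios of RPKM within each library (linear axes from 0) for CCNB1, CCNB2 and CCNF over CCNA2, and for CCND1 over CCNB1; points are libraries and bars the mean of 2. The first 3 ratios are lower in every irradiated library than in any untreated one, and CCND1 over CCNB1 is higher, 1.06 to 1.74 after IR against 0.481 to 0.720 untreated.

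The D-type cyclins moved the other way or not at all. CCND1 (ENSG00000110092, chromosome 11, 69641156 to 69654474), the D-type cyclin induced by RAS and ERK signalling, was at 171 and 162 CPM in untreated control cells and 225 and 240 CPM after IR, with no overlap. Its log2 fold change was 0.48 (interval 0.14 to 0.81), with an adjusted p of 0.0857 from edgeR. In RBM6-KO1 cells it was at 221 and 238 CPM untreated and 258 and 311 CPM after IR (log2 fold change 0.29, interval -0.05 to 0.64, adjusted p = 0.231). Relative to CCNB1 in RPKM, CCND1 went from 0.481 and 0.485 to 1.06 and 1.35 in control cells and from 0.644 and 0.720 to 1.49 and 1.74 in RBM6-KO1 cells, which were the highest values. CCND1 shares 497 exon bases with LTO1, whose log2 fold changes after IR were -0.24 and -0.28.

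CCND2 (ENSG00000118971, chromosome 12, 4269771 to 4305353) was at 37.6 and 37.3 CPM in untreated control cells and 61.0 and 63.7 CPM after IR, a rise of 1.65-fold (log2 fold change 0.72, interval 0.35 to 1.10, adjusted p = 0.0349). In RBM6-KO1 cells it was at 42.2 and 34.7 CPM untreated and 52.4 and 54.2 CPM after IR (log2 fold change 0.45, interval 0.08 to 0.83, adjusted p = 0.112), again without overlap but with the untreated libraries further apart. CCND2 shares 999 exon bases with ENSG00000285901, a protein-coding gene on the same strand that has no row in the counts. How far its reads enter the counts of CCND2 was not tested. CCND3 (ENSG00000112576, chromosome 6, 41934934 to 42050357) was flat: its 8 libraries lay between 134 and 162 CPM, and its log2 fold changes after IR were 0.04 (interval -0.32 to 0.39) and 0.03 (interval -0.29 to 0.35). CCND1 made up 53.6% to 61.8% of the D-type sum in RPKM in the control libraries and 60.6% to 67.3% in the RBM6-KO1 libraries, and these ranges overlapped. The pseudogenes CCND2P1, CCND3P1 and CCND3P2 had 0 counts in every library and CCNB2P1 at most 3.

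Of the E-type cyclins, which bring cells from G1 into S phase, neither passed the test after IR. CCNE1 (ENSG00000105173, chromosome 19, 29811991 to 29824312) was at 9.07 and 9.54 CPM in untreated control cells, 11.1 and 9.74 CPM after IR, 12.9 and 12.8 CPM in untreated RBM6-KO1 cells, and 14.1 and 12.6 CPM after IR. Its log2 fold change after IR was 0.15 in control (interval -0.36 to 0.67) and 0.04 in RBM6-KO1 cells (interval -0.40 to 0.47). CCNE2 (ENSG00000175305, chromosome 8, 94879770 to 94896678) rested on 10 to 47 counts per library, at 0.589 to 2.02 CPM, and its intervals after IR ran from -0.41 to 1.84 and from -1.39 to 0.49, so that a 2-fold rise in control cells and a 2-fold fall in RBM6-KO1 cells both lay inside the intervals. CCNE2 also shares 1629 exon bases with INTS8 on the other strand, whose log2 fold changes after IR were 0.54 and 0.59, and how far such reads enter its counts was not tested.

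Between genotypes, none of the 9 cyclins was called, either untreated (3.12% of all genes called, 6.12% on the adjusted p alone) or after IR (1.17% and 1.21%). Untreated, the unadjusted p was under 0.05 for 3 cyclins, all higher in RBM6-KO1 cells: CCND1 (log2 fold change 0.45, interval 0.17 to 0.74, adjusted p = 0.0593), CCNE1 (0.45, interval 0.003 to 0.90, adjusted p = 0.268) and CCNE2 (1.29, interval 0.29 to 2.29, adjusted p = 0.137). All are cyclins of G1 or of entry into S, and for each the untreated RBM6-KO1 libraries lay above the untreated control libraries. CCNE2 rested there on 13 and 11 counts against 36 and 20. The rest of the G1 cyclins did not follow: CCND2 was at 0.03 (edgeR adjusted p = 0.965) and CCND3 at -0.006 (adjusted p = 0.990). The difference is therefore not one of the whole phase. DESeq2 called 0 cyclins and gave CCND1 an adjusted p of 0.0403 at less than 2-fold. The other 6 had log2 fold changes from -0.18 for CCNF to 0.03 for CCND2 in untreated cells. After IR only CCNF had an unadjusted p under 0.05 (log2 fold change -0.58, interval -1.02 to -0.13, adjusted p = 0.294), CCNB2 was at -0.40 (interval -0.81 to 0.004, adjusted p = 0.454) and CCNB1 at -0.14 (interval -0.52 to 0.23), and DESeq2 called 0, its smallest adjusted p being 0.352. With the replicate letter as a block in the fit, CCNF (0.00629), CCNB2 (0.0215) and CCND1 (0.0255) passed edgeR's adjusted p after IR, all under 2-fold. The IR and genotype comparisons share libraries and are not independent of each other.

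**Figure D3:**
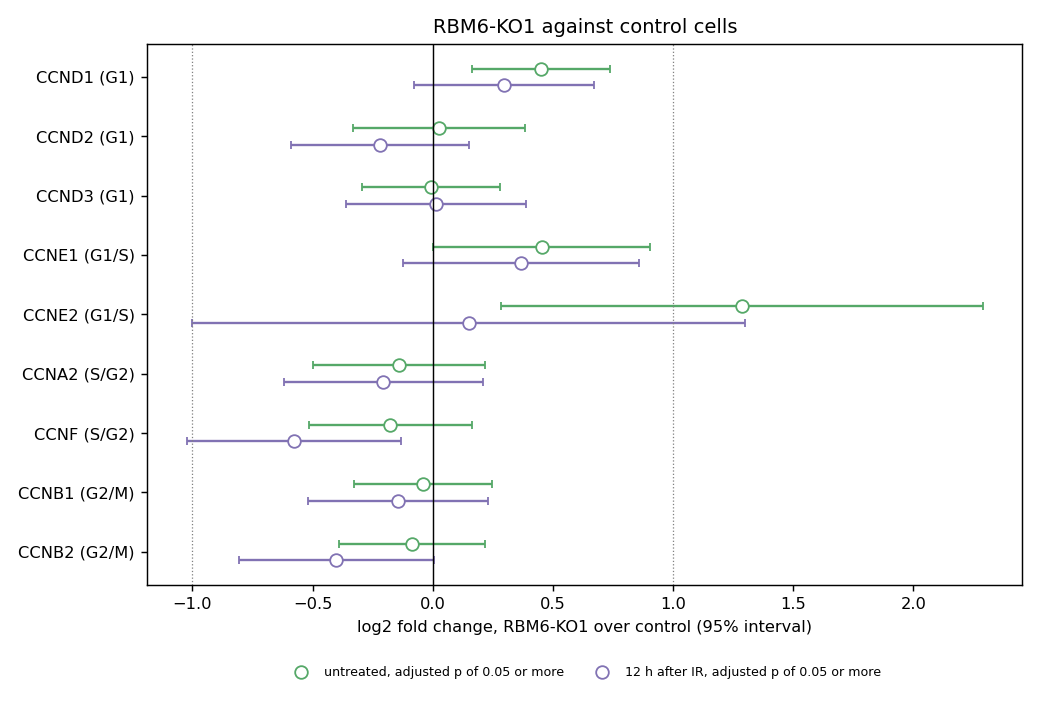
Log2 fold change of the 9 cyclins in RBM6-KO1 over control cells, untreated and 12 h after IR, with 95% intervals from edgeR. All points are open (adjusted p of 0.05 or more); CCND1 and CCNE1 lie near 0.45 untreated, and CCNF at -0.58 is the lowest point after IR.

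Whether the IR response differed between the genotypes was tested as the interaction over all 8 libraries. No cyclin was called, and 0.0% of the 16549 genes tested were; 306 genes and 0 cyclins had an unadjusted p under 0.05, and DESeq2 called 0 genes. The 9 estimates were all below 0: in RBM6-KO1 cells each cyclin fell more or rose less after IR than in control cells, or, for CCNE2, fell where it rose. Of all genes tested, 51.3% were below 0. The 9 estimates share the same 8 libraries and are not independent. Over these libraries the log2 CPM of CCNB1, CCNB2 and CCNF correlated with each other at r = 0.919 to 0.974. For CCND3 (-0.002), CCNA2 (-0.08) and CCNB1 (-0.12) the sign changed under other settings or with 1 library left out. The smallest p was 0.0907 for CCNF, with a difference of -0.42 on the log2 scale (interval -0.93 to 0.08, adjusted p = 1.0 from edgeR), followed by CCNB2 at -0.34 (interval -0.76 to 0.09) and CCNE2 at -1.15 (interval -2.65 to 0.35). CCNB1 had an interval of -0.55 to 0.30. The larger falls of CCNF and CCNB2 in RBM6-KO1 cells, which put them past the 2-fold limit there and not in control cells, were therefore not shown to differ between the genotypes.

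The regulators of these cyclins, together with 15 other cyclins, were taken from 7 lists holding 62 genes, of which 59 were tested after IR. In control cells 3 were called higher and 3 lower, where 1.68% of all genes tested were called higher and 1.91% lower, and in RBM6-KO1 cells 2 higher and 4 lower, where 1.13% and 1.97% were. Their median log2 fold change was 0.037 in control and -0.005 in RBM6-KO1 cells, beside 0.017 and -0.006 for all genes tested. In the list of factors for cyclin destruction and its adaptors, 2 of 10 were called lower in each genotype, and 4 were lower in RBM6-KO1 cells on the adjusted p alone, where 3.23% of all genes were. The list median was -0.32 in control and -0.46 in RBM6-KO1 cells. CDC20, which activates the ligase that destroys cyclin B in mitosis, went from 236 and 217 CPM to 102 and 80.6 CPM in control cells and from 213 and 243 CPM to 70.5 and 66.0 CPM in RBM6-KO1 cells (log2 fold changes -1.32 and -1.76, adjusted p = 0.00365 and 0.00154). UBE2S, a ubiquitin-conjugating enzyme of the same ligase, fell by 1.31 and by 1.43 on the log2 scale (adjusted p = 0.00388 and 0.00352 from edgeR).

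Among the 13 genes of RB and the E2F factors, E2F2, an activating E2F, was called lower in both genotypes (log2 fold changes -1.74 and -1.79), at 4.02 and 4.97 CPM untreated and 1.06 and 1.75 CPM after IR in control cells. E2F1 was at -0.95 in control cells (adjusted p = 0.0428, under 2-fold) and was called lower in RBM6-KO1 cells at -1.36. E2F7, a repressor E2F induced by p53, was called higher in control cells at 1.17 and was not called in RBM6-KO1 cells (log2 fold change 0.59, adjusted p = 0.210). Of the 5 CDK inhibitors tested, CDKN1A alone was called, at 1.80 and 2.02. None of the 4 CDK partners passed the adjusted p after IR. CDK1, which pairs with the B-type cyclins, was at 84.0 and 57.9 CPM untreated and 80.7 and 81.4 CPM after IR in control cells. In RBM6-KO1 cells it was at 73.7 and 68.6 CPM untreated and 70.4 and 83.2 CPM after IR. Of the 7 MuvB, B-MYB and FOXM1 genes none was called, with MYBL2, which encodes B-MYB, at -0.74 in RBM6-KO1 cells (adjusted p = 0.0459). Of the 6 genes for CDK1 and CDK2 phosphorylation none was called, with PKMYT1, an inhibitory kinase of CDK1, at -0.70 in RBM6-KO1 cells (adjusted p = 0.0474).

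Of the 15 other cyclins, 14 were tested after IR and none was called lower. CCNG1, a p53 target, rose in both genotypes, by 1.96-fold in control cells (log2 fold change 0.97, adjusted p = 0.0143) and by 2.24-fold in RBM6-KO1 cells (1.16, adjusted p = 0.0153). CCNK, the partner of the transcriptional kinases CDK12 and CDK13, was called higher in control cells at 1.14 and was at 0.97 in RBM6-KO1 cells (adjusted p = 0.0649). Untreated, 1 of the 59 genes was called between genotypes: CCNA1, the cyclin A of the germ line, was at 5.58 and 3.27 CPM in control and 1.52 and 1.29 CPM in RBM6-KO1 cells (log2 fold change -1.65, adjusted p = 0.00965). On the adjusted p alone 3 of the 59 were higher and 2 lower, CCNA1 included, beside 6.12% of all genes. The others were under 2-fold: CDC25B (log2 fold change -0.68, edgeR adjusted p = 0.00442), CDK6 (0.66, 0.0374), E2F1 (0.64, 0.0459) and CDKN1C (0.89, 0.0464). After IR 0 of the 59 were called between genotypes. In the interaction 0 of the 60 tested there were called, as were 0.0% of all genes, which does not show that their IR responses were alike.

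The genes whose log2 CPM most resembled that of CCNB1 over the 8 libraries, among 10729 genes with a mean of at least 5 CPM, were MIDN (Pearson r = 0.996), CDC20 (0.991), UBE2S (0.990), KIFC1 (0.989) and TLE3 (0.989). For CCND1 they were FAM210A (0.991), CERK (0.989), ZNF252P (0.980), PRKAG2 (0.980) and C5 (0.976). These values describe 8 libraries in 4 groups, share their scaling, carry no test, and for CCNB1 follow mainly the split between untreated and irradiated libraries.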

How the data were processed

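RNA of 8 samples was sequenced (TruSeq mRNA kit, paired-end reads). The authors deposited a table of raw, unnormalized counts with 1 row per Ensembl gene. The submitters' processing notes name STAR, DESeq2 and hg38. The annotation and the strandedness of counting are not given in the sources used here. Of 58233 identifiers, 57392 were given symbols from GENCODE v44. Counts were tested with edgeR 4.0.16 in R 4.3.3 (TMM, filterByExpr, quasi-likelihood F-test, two-sided, Benjamini-Hochberg adjustment over all genes tested), each comparison on its own 4 libraries and the interaction on all 8. DESeq2 1.42.0 was an alternative, beside other normalizations, filters, a replicate block, a GC content and length correction and the omission of each library. Tests were checked on simulated counts. A floor of 3 counts is 0.101 to 0.195 CPM and covers counting error only.

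The members and all lists were chosen with earlier results of these data known. The rule for named genes took the 9 cyclins, list members called in a pairwise comparison, checks of the labels, and for CCNB1, CCND1 and CCNE2 the 5 genes of highest r among those with a mean of at least 5 CPM (none for CCNE2, itself under 5 CPM). CDK1, CDK6, CDKN1C, CDC25B, MYBL2, PKMYT1 and the genes sharing exons with a cyclin lie outside it and were chosen after their values were seen. Replicates are biological replicates of 1 line and 1 clone, so p-values say nothing of other lines or clones. They rest on the spread between these cultures, which edgeR estimates for each gene with the help of a trend shared over genes. The 2 libraries per group allow no exact permutation p under 0.05. Replicates differed by more than sampling noise in every group (chi-square per degree of freedom 10.6 to 32.5). RPKM used the union of GENCODE exons, and standard errors and 95% intervals come from the F statistic.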

Additional observations from a re-analysis of the deposited data

How the results depend on the processing

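CCNE2 rested on 10 to 47 counts per library, which limits what its values can show. Over the 45 fold changes of the cyclins, 592 of 629 alternative values kept their direction and their side of the call threshold. Most of the 45 were not called in the main fit, which makes staying uncalled easy. This count therefore does not show that changes under 2-fold kept their adjusted p. The number of cyclins called after IR was 0 in control cells under every alternative but the adjusted p alone, which gave 4, and it was 2 in RBM6-KO1 cells, except with the adjusted p alone, which gave 3, and with 1 library left out, which gave 1 to 2. It stayed at 0 for the other comparisons.

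None of the values that changed sign was past the threshold, and the cause was not tested. With upper-quartile normalization CCND3 was at -0.0056 in control cells and -0.0078 in RBM6-KO1 cells after IR, at 0.0071 between untreated genotypes and at 0.0050 in the interaction. Between untreated genotypes CCND3 was at 0.00030 with DESeq2 size factors, 0.0030 with no filter, 0.163 with GC content and length trends removed and 0.0069 with all 8 libraries in 1 fit, and in the interaction at 0.0039 with DESeq2. CCNE2 between genotypes after IR was at -0.0365 with GC content and length trends removed. With 1 library left out, CCNA2 ran from -0.233 to 0.118 in control cells after IR, from -0.305 to 0.0554 between untreated genotypes and from -0.283 to 0.0848 in the interaction, and the interaction of CCNB1 from -0.218 to 0.0076. CCND3 ran from -0.0899 to 0.168 in control cells after IR, from -0.0152 to 0.0057 and from -0.128 to 0.144 between genotypes untreated and after IR, and from -0.104 to 0.137 in the interaction. CCND2 between untreated genotypes ran from -0.141 to 0.171 and CCNE1 in RBM6-KO1 cells after IR from -0.0304 to 0.133. CCNE2 ran from -0.103 to 1.13 in control cells after IR and from -0.269 to 0.952 between genotypes after IR.

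The letters A and B did not pair untreated with irradiated libraries. Deviations from the group means correlated at -0.181 in control and -0.257 in RBM6-KO1 cells between untreated and irradiated libraries of the same letter. Between genotypes the correlation was 0.079 untreated and 0.350 after IR, so irradiated libraries of the same letter did vary together in part. A replicate block on the letter gave 0 and 2 cyclins called after IR and 0 in the other comparisons. On the adjusted p alone it ended the control-cell changes of CCNF (0.0990) and CCND2 (0.0640) after IR, passed CCNF (0.00629), CCNB2 (0.0215) and CCND1 (0.0255) between genotypes after IR and CCND1 (0.0291) between untreated genotypes, all under 2-fold, and left the other cyclins on their side of 0.05. It moved the interaction of CCND3 to 0.00090 and changed the count of all genes called by over 1.5 times only between genotypes after IR (541 against 182). With the letters crossed, chosen after seeing the data, 965 and 1222 genes were called after IR, with the same 0 and 2 cyclins. For all genes, the adjusted p alone gave 881 and 884 calls after IR and 952 between untreated genotypes, against 553, 485 and 486, and no filter gave 962 and 1011 after IR. Between genotypes after IR, against 182, the count was 280 with DESeq2, 506 with no filter, 71 with at least 10 counts in every library, 339 with GC content and length trends removed and 340 with all 8 libraries in 1 fit. In the interaction, no filter gave 1 gene called. Leaving out 1 library gave 287 to 1406 calls in control and 289 to 1563 in RBM6-KO1 cells after IR, and 169 to 477 between genotypes after IR.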
